A study of Mus musculus with 2 samples.

Results

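The genes described here are 10 core genes of TGF-beta signalling, taken by name: the ligand gene Tgfb1, the receptor genes Tgfbr1 and Tgfbr2, the Smad genes Smad2, Smad3, Smad4 and Smad7, the corepressor genes Ski and Skil, and the ubiquitin ligase gene Smurf2. They are 10 of 21938 protein-coding genes, and the rule uses no measured value, although the list was drawn up with earlier results of these data known. The data are the H3K79me2 peaks of macrophages grown from mouse bone marrow, strain C57BL/6J, with no stimulation and no other genotype or agent named. There were 2 biological replicates in 1 group, each library from 10 ng of DNA, with the same control experiment named for both. Sex and age are unrecorded in the labels, and one donor identifier stands on both replicates, so separate animals or separate cultures cannot be read from them.

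H3K79me2 is dimethylation of lysine 79 of histone H3, which is written by Dot1l and is found on the transcribed part of active genes, from just downstream of the start into the gene body. TGF-beta binds Tgfbr2, which recruits and phosphorylates Tgfbr1. Tgfbr1 phosphorylates Smad2 and Smad3, and these join Smad4 and enter the nucleus to act on target genes. Smad7 and Smurf2 act against the receptors, and Ski and Skil hold Smad complexes in a repressed state. In macrophages TGF-beta is known as a restraint on inflammatory activation, and macrophages both secrete and receive it.

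Each replicate has its own deposited peak list, and a pooled list and a replicated list were made from both. There were 22979 peaks over 63.5 Mb in replicate 1, 31577 peaks over 114 Mb in replicate 2, 26838 peaks over 106 Mb in the pooled list and 15559 peaks over 93.2 Mb in the replicated list. The depth of the libraries is unknown, so counting intervals cannot be given, and with 1 group no comparison of conditions and no test was possible. Of 10 macrophage marker genes, 9 were marked in the sense defined next, and the other, Csf1r, carried 18778 bp of peaks farther in. Of 19 markers of T cells, B cells, neutrophils, dendritic cells, fibroblasts and erythroid cells, 0 had a base under any list that was compared. In such bulk chromatin, a mark carried by fewer cells and a weaker mark in each cell cannot be told apart.

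To count as marked, a gene needed 200 bp or more under peaks within 3 kb downstream of its outermost annotated 5′ end. In the replicated list 9 of the 10 genes were marked, against 30.3% of all coding genes. Replicate 1's list marked 9, against 27.2% of coding genes. Replicate 2's list marked 10, against 35.6%, and the pooled list also marked 10, against 34.3%. When any annotated transcript start of a gene could count, the replicated list marked 9, against 32.9%. The gene that was unmarked in the replicated list and in replicate 1 was Smad3, and the other 9 were marked in each list.

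**Figure D1:**
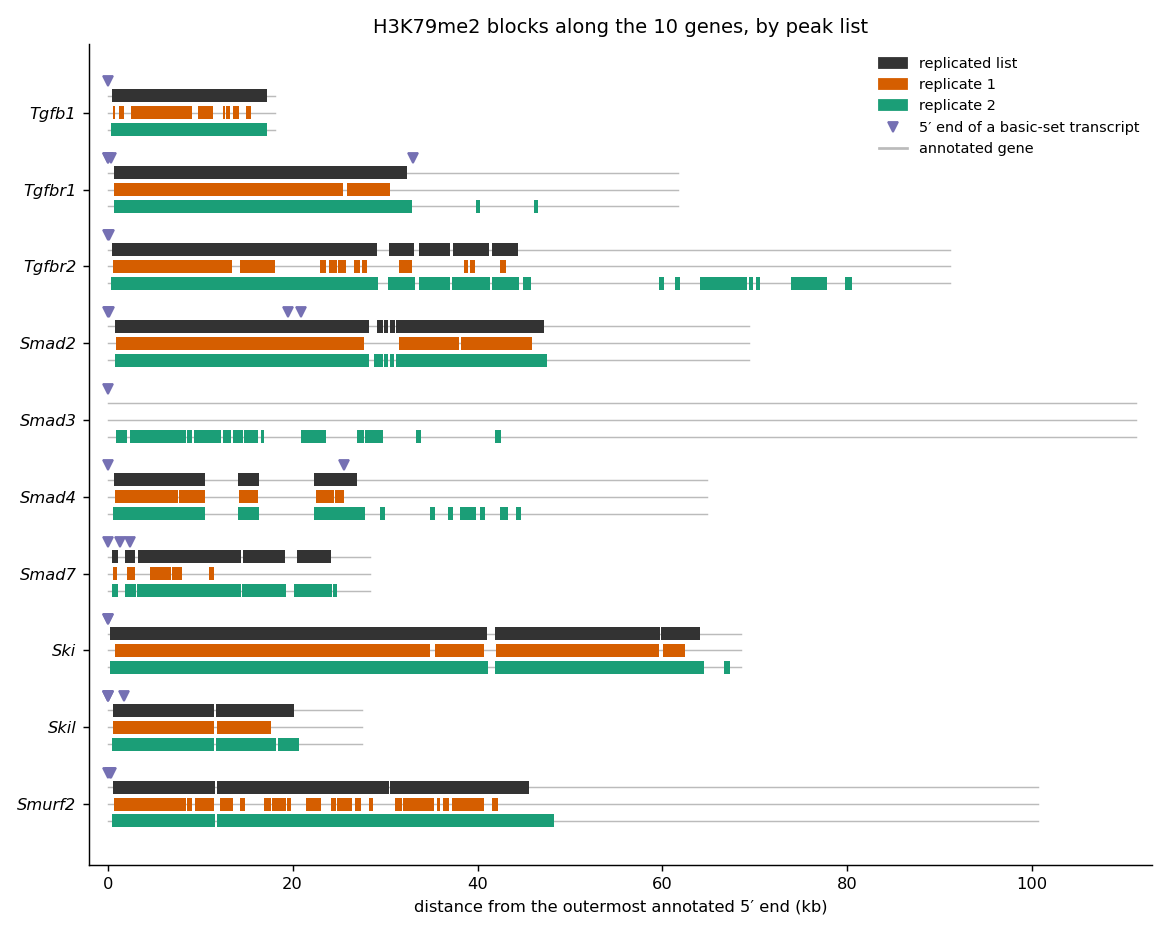
Stretches under H3K79me2 peaks along each gene, as distance in kb from the outermost annotated 5′ end, with 1 bar row for each of the replicated, replicate 1 and replicate 2 lists, triangles at the 5′ ends of transcripts in GENCODE's basic set, and a grey line for the annotated gene. The blocks begin inside each gene, short of 1 kb from its start, Ski is covered over 91.4% of its length, and Smad3 has blocks only in replicate 2's row.

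The ligand gene Tgfb1 (mm10 chromosome 7, 25687002 to 25705077, plus strand) encodes TGF-beta 1, which is secreted in a latent form. It is a short gene of 18076 bp and 7 exons. In replicate 1, 11055 bp were under peaks, 61.2% of the gene, in 8 blocks. In replicate 2, 16864 bp were under a single block, 93.3% of the gene. The mean of the replicates was 13960 bp ± 4108 (SD, n = 2). The replicated list covered 16711 bp in 2 blocks that a gap of 72 bp separated. So in replicate 2 and in the replicated list the mark ran nearly from end to end of Tgfb1. Replicate 1's cover was broken into pieces.

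The first covered base of Tgfb1 lay 416 bp inside the gene in the replicated list, within exon 1 and ahead of the start codon at 867 bp. In replicate 1 it lay at 542 bp and in replicate 2 at 335 bp. The last covered base in replicate 2 and in the replicated list was at 17198 bp, in exon 6. This left 877 bp at the 3′ end without a peak. In replicate 1 the last covered base was at 15494 bp, which left 2581 bp. The highest fold over control, a value computed by the authors for each peak, was 16.4 in the start window in replicate 1, 35.4 in replicate 2 and 25.3 in the replicated list. A start-window fold is the highest fold of any peak that touches the first 3 kb, wherever its highest point lies. The replicated value was above that of 90.7% of the 6658 coding genes marked in that list. Folds from different lists are on different scales and are given only to place a peak within its own list.

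B9d2, a ciliary gene on the same strand, ends 443 bp upstream of Tgfb1. B9d2 had 0 bp under replicate 1's list, 3268 bp under replicate 2's, 2463 bp under the pooled list and 0 bp under the replicated list. In the 5 kb upstream of Tgfb1, replicate 2 had 2601 bp under peaks and replicate 1 had 0. Peaks upstream of the Tgfb1 start were therefore seen in 1 replicate and not the other. The 250 bases ahead of the Tgfb1 start are shown because no replicated peak reached them (RefSeq, GRCm38.p6, chr7:25686752-25687001, plus strand, 5′ to 3′, capitals mark GGGCGG or its reverse complement CCGCCC).
Tgfb1: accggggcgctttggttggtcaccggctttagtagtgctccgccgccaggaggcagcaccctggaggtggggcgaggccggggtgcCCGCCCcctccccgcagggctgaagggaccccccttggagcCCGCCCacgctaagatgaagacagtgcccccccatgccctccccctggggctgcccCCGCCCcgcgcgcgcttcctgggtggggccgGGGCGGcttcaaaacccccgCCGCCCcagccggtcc
This stretch had a GC content of 75.2%, and GGGCGG, the core of the GC box bound by Sp1-family factors, occurred 5 times counting both strands.

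The type I receptor gene Tgfbr1 (chromosome 4, 47353222 to 47414931, plus strand) encodes the kinase that phosphorylates Smad2 and Smad3. Of its 61710 bp, 29441 bp (47.7%) were covered in replicate 1 and 33103 bp (53.6%) in replicate 2. The mean was 31272 bp ± 2589 (SD, n = 2), and the replicates differed by a factor of 1.12. In the replicated list the cover was a single unbroken block of 31677 bp, from 656 to 32332 bp inside the gene. That block was longer than the longest block of 96.9% of marked coding genes. Its edges are 47353878 and 47385554 on chromosome 4. The block was nearly the first intron itself: intron 1 is 30352 bp long, 98.4% of it was covered, and it held 94.3% of the gene's covered bases.

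Tgfbr1 has a basic-set transcript that starts inside the gene, 32994 bp from the 5′ end at position 47386216. The replicated block ended short of that start, at 32332 bp, and replicate 2's first block at 32951 bp. Of the 3 kb downstream of the internal start, 0 bp were covered in replicate 1, in replicate 2 and in the replicated list. The sequences ahead of the outer and the internal start are shown together because peaks followed one and not the other (RefSeq, GRCm38.p6, plus strand, 5′ to 3′, chr4:47352972-47353221 and chr4:47385966-47386215, capitals as above).
Tgfbr1 outer start: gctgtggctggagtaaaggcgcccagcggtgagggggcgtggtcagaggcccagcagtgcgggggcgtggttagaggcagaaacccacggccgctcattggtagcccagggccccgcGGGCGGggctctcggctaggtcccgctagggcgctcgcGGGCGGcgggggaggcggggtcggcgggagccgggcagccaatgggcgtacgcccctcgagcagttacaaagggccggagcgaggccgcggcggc
Tgfbr1 internal start: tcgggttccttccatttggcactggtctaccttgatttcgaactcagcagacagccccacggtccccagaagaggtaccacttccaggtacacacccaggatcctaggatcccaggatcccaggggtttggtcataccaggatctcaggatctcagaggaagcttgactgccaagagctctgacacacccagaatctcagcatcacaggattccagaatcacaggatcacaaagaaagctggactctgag
The outer stretch had a GC content of 74.8%, 29 CpG dinucleotides and an observed to expected CpG ratio of 0.876. The internal stretch had 52.8%, 3 CpG dinucleotides and a ratio of 0.175. GGGCGG occurred 2 times in the outer stretch and 0 times in the internal one.

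The type II receptor gene Tgfbr2 (chromosome 9, 116084293 to 116175360, minus strand) encodes the kinase that binds the ligand first. In replicate 1, 23121 bp of its 91068 bp were covered, 25.4% of the gene, in 12 blocks. In replicate 2, 54586 bp were covered, 59.9% of the gene, in 13 blocks. The mean was 38854 bp ± 22249 (SD, n = 2), and replicate 2 held 2.36 times the bases of replicate 1. The replicates thus placed the mark on Tgfbr2 over very different lengths, while all 23121 bp of replicate 1 lay within replicate 2's blocks.

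The replicated list covered 41498 bp of Tgfbr2 in 5 blocks. The first and longest ran for 28685 bp, from 448 to 29132 bp inside the gene, and the last ended at 44389 bp, just past the first intron of 43230 bp. Intron 1 held 98.2% of the covered bases. Replicate 2 alone went on to 80549 bp. Of its 13 peaks in the gene, 9 touched no peak of replicate 1, and these 9 had folds between 2.62 and 13.3. Over all coding genes, 37.1% of replicate 2's peaks touched a peak of replicate 1, so unshared peaks are common. The lowest fold among the 4 shared peaks was 14.2, so within replicate 2's list the unshared peaks of Tgfbr2 were the weaker ones.

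The 250 bases ahead of the RefSeq start of Tgfbr2 are shown for contrast with Tgfbr1 (RefSeq, GRCm38.p6, chr9:116175364-116175613, minus strand, 5′ to 3′).
Tgfbr2: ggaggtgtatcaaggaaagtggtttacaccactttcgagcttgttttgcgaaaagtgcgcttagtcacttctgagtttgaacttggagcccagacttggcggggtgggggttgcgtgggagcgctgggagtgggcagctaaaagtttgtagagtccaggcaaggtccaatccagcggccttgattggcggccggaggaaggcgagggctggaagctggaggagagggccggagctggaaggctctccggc
The start lies 3 bp outside the GENCODE gene. This stretch had a GC content of 58.4%, a CpG ratio of 0.638 and no GGGCGG on either strand. Both receptor genes were marked from near the start, with first covered bases at 656 and 448 bp and start-window folds of 19.5 and 21.8 in the replicated list.

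Smad3 (chromosome 9, 63646767 to 63757994, minus strand) encodes a receptor-regulated Smad that binds DNA directly. At 111228 bp it was the longest of the 10 genes. It had 0 bp under replicate 1's list and 20949 bp under replicate 2's, 18.8% of the gene. The mean was 10474 bp ± 14813 (SD, n = 2). The replicated list had 0 bp and the pooled list 11799 bp in 8 blocks. Whether Smad3 carried the mark therefore rested on replicate 2 and on the pooled list that contains it. Of the 7808 coding genes marked in replicate 2, 5962 were also marked in replicate 1.

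Replicate 2's 13 blocks in Smad3 lay between 924 and 42555 bp from the 5′ end, inside the first intron of 89549 bp. The longest, of 6035 bp, ran from 2406 to 8440 bp and had the highest fold, 8.46, which exceeded the fold of 71.9% of the peaks in that list. The 13 folds had a median of 4.01, beside a median of 4.70 over the whole list. In the pooled list the folds ran from 2.43 to 5.28 with a median of 3.31, beside 4.16 over that list. By median fold the Smad3 peaks were thus below each list as a whole. The longest blocks of replicate 2, of 6035, 2967 and 2676 bp, were above that list's median, with folds of 8.46, 6.74 and 5.64. The peaks lay downstream of the start. In the first 3 kb, 1797 bp were covered in replicate 2 and 216 bp in the pooled list, just over the 200 bp that defines a marked gene.

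Aagab, a gene on the opposite strand, ends 2178 bp beyond the 3′ end of Smad3. It had 12679 bp under replicate 1's list, 21433 bp under replicate 2's and 14335 bp under the replicated list, so a neighbour of Smad3 was called in both replicates. The sequence ahead of the Smad3 start is shown as that of the 1 gene that was unmarked (RefSeq, GRCm38.p6, chr9:63757995-63758244, minus strand, 5′ to 3′, capitals as above).
Smad3: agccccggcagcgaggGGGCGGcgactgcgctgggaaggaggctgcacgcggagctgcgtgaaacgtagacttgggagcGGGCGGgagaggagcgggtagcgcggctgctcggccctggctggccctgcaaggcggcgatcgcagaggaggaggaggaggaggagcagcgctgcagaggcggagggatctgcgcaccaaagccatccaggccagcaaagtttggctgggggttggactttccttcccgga
It had a GC content of 69.2%, a CpG ratio of 0.794 and 2 copies of GGGCGG. The CpG ratio equals the median of marked coding genes, given further on.

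**Figure D2:**
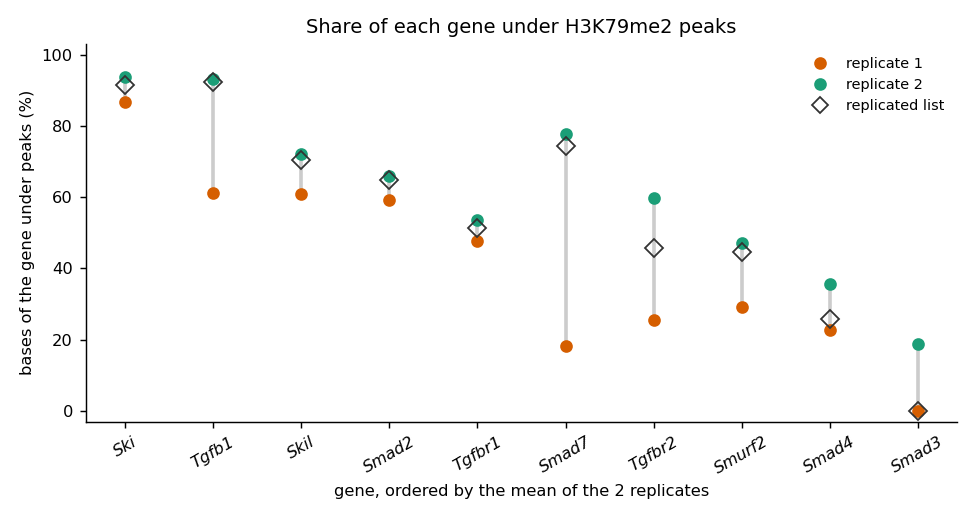
Percent of each gene under H3K79me2 peaks in replicate 1, replicate 2 and the replicated list, with genes ordered by the mean of the replicates. A grey line joins the values of replicate 1 and replicate 2. Ski lies between 86.6% and 93.6%, Smad7 spans 18.2% to 77.8%, and Smad3 is at 0 in replicate 1.

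Smad2 (chromosome 18, 76241580 to 76310963, plus strand) encodes the other receptor-regulated Smad of TGF-beta. Of its 69384 bp, 41011 bp (59.1%) were covered in replicate 1 and 45727 bp (65.9%) in replicate 2. The mean was 43369 bp ± 3335 (SD, n = 2). The replicated list covered 44944 bp in 5 blocks, more than in 94.8% of marked coding genes. The partner Smads that the receptor phosphorylates thus differed in cover. Smad2 had at least 41011 bp in each replicate, and Smad3 had none in replicate 1 and 20949 bp in replicate 2.

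The longest block of Smad2 ran for 27413 bp, from 810 to 28222 bp. It took in 98.0% of the first intron of 20460 bp and both internal basic-set starts, at 19541 and 20912 bp. The start codon of the outermost transcript also lies at 20912 bp. A further block of 15996 bp reached 47146 bp, in intron 4. The first covered base, at 810 bp, was the farthest inside among the 9 marked genes. In replicate 1 it lay at 879 bp and in replicate 2 at 804 bp. Only 190 bp of the first kb of Smad2 were therefore covered.

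Smad4 (chromosome 18, 73639009 to 73703780, minus strand) encodes the common Smad that joins the phosphorylated ones. Of its 64772 bp, 14630 bp (22.6%) were covered in replicate 1 and 23067 bp (35.6%) in replicate 2. The mean was 18848 bp ± 5966 (SD, n = 2). In the replicated list 16675 bp were covered, 25.7% of the gene, the lowest share among the 9 marked genes. Its start-window fold was 11.5 in replicate 1, 30.6 in replicate 2 and 25.5 in the replicated list, the last above that of 91.0% of marked coding genes. The peak with that fold reaches into the window from a highest point 5074 bp inside the gene.

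The 3 replicated blocks of Smad4 stood well apart. The first ran from 631 to 10511 bp at a fold of 25.5, the second from 14128 to 16324 bp at 9.17, and the third from 22370 to 26966 bp at 10.7. Gaps of 3616 and 6045 bp separated them, the longest gaps in the set. The third block contains an internal basic-set start, at 25549 bp, and the start codon of the outermost transcript, at 25869 bp. Of the 3 kb downstream of that internal start, 65 bp were covered in replicate 1, 2235 bp in replicate 2 and 1418 bp in the replicated list. Replicate 2 had 7 more peaks farther along Smad4 that touched none of replicate 1, with folds from 2.82 to 4.76. Of its 10 peaks in Smad4, 3 were shared, beside 37.1% of its peaks in coding genes.

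Smad7 (chromosome 18, 75367529 to 75395935, plus strand) encodes the inhibitory Smad, itself a feedback target of the pathway. In replicate 1, 5179 bp of its 28407 bp were covered, 18.2% of the gene. In replicate 2, 22096 bp were covered, 77.8%. The mean was 13638 bp ± 11962 (SD, n = 2), and the ratio of replicate 2 to replicate 1 was 4.27. Smad7 was the gene whose cover differed most by this ratio among the 9 marked genes. The replicated list covered 21121 bp, 74.4% of the gene, in 5 blocks, close to replicate 2's extent.

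The start-window fold of Smad7 was the lowest of the 9 marked genes in each list. It was 4.96 in replicate 1, 9.25 in replicate 2 and 7.37 in the replicated list, the last above that of 26.5% of marked coding genes. The highest fold in the gene, 9.80, was that of the third block, from 3261 to 14367 bp. The first block began at 509 bp, inside an exon 1 of 2040 bp, and the mark then ran to 24176 bp, in the last intron. Since exon 1 is long and intron 1 short, at 1326 bp, intron 1 held 5.08% of the covered bases.

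Ski (chromosome 4, 155154075 to 155222592, minus strand) encodes a corepressor that binds Smad complexes on DNA. It had the widest cover of the set. In replicate 1, 59370 bp of its 68518 bp were covered (86.6%), and in replicate 2, 64103 bp (93.6%). The mean was 61736 bp ± 3347 (SD, n = 2). The replicated list covered 62607 bp, more than in 97.4% of marked coding genes, in 3 blocks of which the longest, 40686 bp, exceeded the longest block of 98.4% of them. Intron 1 makes up 60595 bp of the gene, and 98.2% of it was covered.

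The 3 blocks of Ski had folds of 22.1, 23.4 and 17.0 in order from the start, so the middle block had the highest. The highest point of the strongest peak lay 45258 bp inside the gene in the replicated list, 22853 bp in replicate 1 and 8650 bp in replicate 2. The position of the highest point therefore differed widely between lists. The first covered base lay at 306 bp in the replicated list, 807 bp in replicate 1 and 246 bp in replicate 2. It was the nearest to the start among the 9 genes in the replicated list and in replicate 2, but not in replicate 1, where Tgfb1 at 542 bp was.

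Skil (chromosome 3, 31095058 to 31122577, plus strand) encodes SnoN, a corepressor related to Ski. Of its 27520 bp, 16768 bp (60.9%) were covered in replicate 1 and 19804 bp (72.0%) in replicate 2. The mean was 18286 bp ± 2147 (SD, n = 2), and the replicated list covered 19336 bp in 3 blocks. The first block ran from 526 to 11503 bp and took in an internal basic-set start at 1775 bp. With a first intron of 1545 bp, only 5.79% of the covered bases lay in intron 1, beside 95.0% in Ski. The 2 corepressor genes were alike in having most of their length covered and unlike in where their long introns lie.

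Smurf2 (chromosome 11, 106820066 to 106920715, minus strand) encodes an E3 ubiquitin ligase that Smad7 brings to the receptor. Of its 100650 bp, 29460 bp (29.3%) were covered in replicate 1, in 20 blocks. In replicate 2, 47550 bp (47.2%) were covered in 2 blocks. The mean was 38505 bp ± 12792 (SD, n = 2). The replicated list covered 44765 bp from 545 to 45554 bp, with gaps of 186 and 59 bp. Those bases lay in intron 1, and 0 exon bases were covered. The same stretch was thus called as fragments in replicate 1 and as nearly continuous cover in replicate 2.

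The 9 marked genes shared an edge near the start. Their first covered bases in the replicated list lay between 306 and 810 bp, with a median of 526 bp, beside a median of 377 bp over the 6658 marked coding genes (quartiles 166 and 645). The first base of the gene was covered in 0 of the 9, beside 8.02% of marked genes. In the 5 kb upstream, 0 of the 9 had a base under the replicated list, beside 23.9% of marked genes. In the replicated list the mark of these 9 genes thus began inside the gene, as it did in most marked coding genes. Upstream of Tgfb1, replicate 2 had 2601 bp and the pooled list 1874 bp under peaks. In the first 500 bp, 7.33% of the bases of the 9 genes were covered, beside 34.2% over marked genes.

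**Figure D3:**
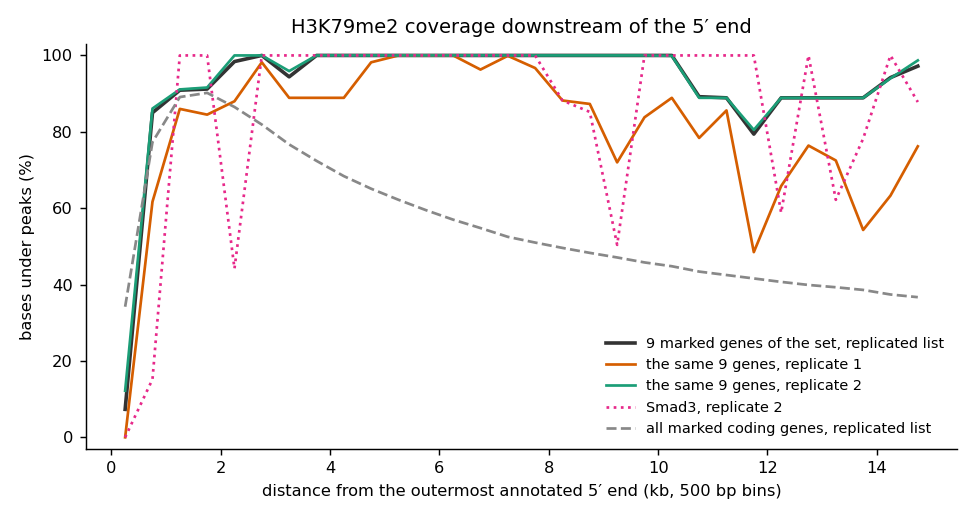
Percent of bases under H3K79me2 peaks in 500 bp bins, by distance in kb from the outermost annotated 5′ end, for the 9 marked genes in each list, for Smad3 in replicate 2, and for all marked coding genes. The 9 genes go from 7.33% in the first bin to 100% at 5 to 5.5 kb in the replicated list, where all marked genes stand at 62.2%.

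Farther in, cover on the 9 genes was kept longer. From 5000 to 5500 bp, 100% of bases were covered in replicate 1, in replicate 2 and in the replicated list. Over the 5936 genes marked in the replicated list that reach that far, 45.3%, 67.7% and 62.2% were covered in the same lists. From 10000 to 10500 bp it was 88.9% in replicate 1, 99.9% in replicate 2 and 100% in the replicated list, beside 31.7%, 51.2% and 44.8% over marked genes. These 9 genes are long, with a median of 64772 bp beside 24425 bp over marked genes, and the part of length in this was not tested. With each gene cut into 10 equal parts, the mean cover of the 9 genes was 85.0% in the first part, 80.0% in the fifth and 9.53% in the last. Over marked coding genes the means in the same parts were 68.2%, 40.3% and 8.66%. In the last part, 2 of the 9 genes had a covered base.

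As a description of sizes, the median of covered bases over the 9 marked genes was 31677 bp, beside 6118 bp over marked coding genes (quartiles 2902 and 14433). The median share of the gene covered was 64.8% beside 33.9%, and the median start-window fold was 20.4 beside 11.9. Smad3, which has none of these values in the replicated list, is outside these medians. Over the 10 genes as a whole, 299334 of 641333 bp were under the replicated list (46.7%), beside 8.80% of the summed length of all coding genes. Intron 1 held a median of 92.6% of the covered bases in the 9 genes (quartiles 24.4% and 95.0%). Over the 6495 marked genes with an intron the median was 61.0% (quartiles 21.1% and 95.1%). The quartiles were thus close, and the 9 genes spread as widely as marked genes do.

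The order of the 10 genes by mean share covered was Ski at 90.1% ± 4.88, Tgfb1 at 77.2% ± 22.7, Skil at 66.4% ± 7.80, Smad2 at 62.5% ± 4.81 and Tgfbr1 at 50.7% ± 4.20 (SD, n = 2 for each gene). Below these came Smad7 at 48.0% ± 42.1, Tgfbr2 at 42.7% ± 24.4, Smurf2 at 38.3% ± 12.7, Smad4 at 29.1% ± 9.21 and Smad3 at 9.42% ± 13.3 (SD, n = 2 for each gene). The ranges of neighbours in this order overlapped, except between Smad2 and Tgfbr1 and between Smad4 and Smad3. With 2 replicates the place of Tgfb1, Smad7 and Tgfbr2 in the order is loose.

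Replicate 1's cover was nested in replicate 2's. In 7 of the 9 genes covered in both, each base under replicate 1's peaks was also under replicate 2's, and in Smad4 and Ski 14623 of 14630 bp and 59350 of 59370 bp were. Shared bases divided by bases in either replicate, the Jaccard index, were 0.926 for Ski, 0.897 for Smad2, 0.889 for Tgfbr1 and 0.847 for Skil. They were 0.656 for Tgfb1, 0.634 for Smad4, 0.620 for Smurf2, 0.424 for Tgfbr2 and 0.234 for Smad7. Over the 5962 coding genes marked in both replicates the median was 0.613 (quartiles 0.417 and 0.781). Smad7 was below all but 8.9% of those genes, and Ski above 94.9% of them. In all, replicate 2 covered 347849 bp of the 10 genes and replicate 1 covered 230035 bp, a ratio of 1.51, beside 1.79 over all coding genes. The larger cover in replicate 2 was thus found across the genome and not in these genes alone.

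**Figure D4:**
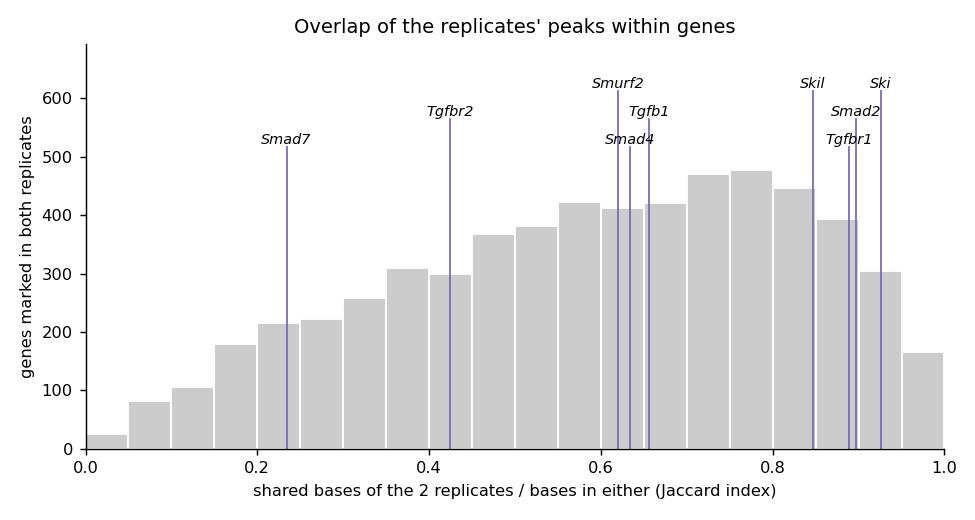
Histogram of the Jaccard index (shared bases divided by bases in either replicate) over 5962 coding genes marked in both replicates, with vertical lines at the 9 genes of the set that have cover in both. Smad7 at 0.234 and Tgfbr2 at 0.424 lie in the lower part, and Ski, Smad2, Tgfbr1 and Skil lie at 0.847 or above.

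Counted by peaks, 21 of replicate 2's 60 peaks in the 10 genes overlapped a peak of replicate 1 (35.0%), beside 11161 of 30063 peaks in coding genes (37.1%). Of the 39 that did not, 13 were in Smad3 and 9 in Tgfbr2. The replicated list itself stands close to the pooled one: the 30 replicated peaks in the 10 genes had the same start and end as pooled peaks, and 0 matched a peak of replicate 1 or of replicate 2 in that way.

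The sequences ahead of the starts were compared for 6 of the genes, Tgfb1, Tgfbr1, Tgfbr2, Smad3, Ski and Smurf2. Those of Smad2, Smad4, Smad7 and Skil were not analysed here. The GC content of the 250 bases was 87.6% for Ski and 82.0% for Smurf2, and for the other 4 it lay between 58.4% and 75.2%. The CpG ratio was 1.15 for Ski and 0.928 for Smurf2, and for the other 4 it lay between 0.600 and 0.876. Over 12853 coding genes the medians were 56.4% and 0.599, over the 4532 marked ones 60.4% and 0.794, and over the 8321 unmarked ones 54.0% and 0.403. Smad3, unmarked in the replicated list, thus had a start as rich in CpG as the median marked gene.

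GGGCGG was present in 5 of the 6 sequences on either strand, with Tgfbr2 the exception, beside 47.3% of the 12853. Smurf2 held 7 copies and Ski 5. These 6 other motifs, searched on both strands, occurred in 0 of the 6: the Smad palindrome GTCTAGAC (0.148% of all such sequences), the AP-1 motif TGANTCA (5.96%), the PU.1 motif GAGGAAGT (2.47%), the TATA box TATAAA (10.7%), the cyclic AMP element TGACGTCA (2.33%) and the E-box CACGTG (7.34%). A match, or the lack of one in these 250 bases, describes the letters only.

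Beyond the 10 genes, 94 other genes of TGF-beta, activin and BMP signalling were listed by role. Of these, 52 were marked in the replicated list, or 55.3%, beside 30.3% of coding genes. Replicate 1 marked 44, beside 27.2% of coding genes, replicate 2 marked 54, beside 35.6%, and the pooled list 54, beside 34.3%. With any transcript start 55 were marked in the replicated list, beside 32.9%. There were 39 with no base under the replicated list. Marked shares differed by role, from 1 of 14 genes listed as ligands to 9 of 9 genes of non-Smad signalling.

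**Figure D5:**
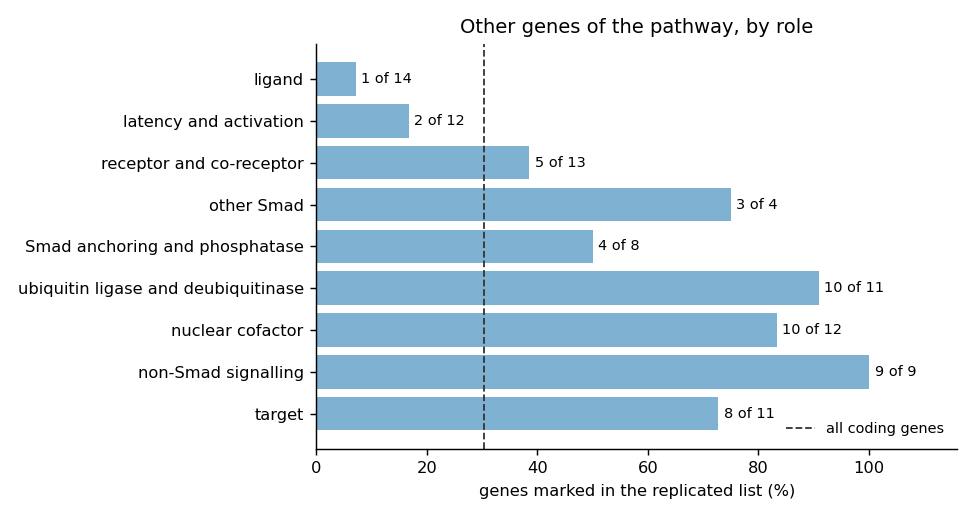
Percent of the other pathway genes marked in the replicated list, by role, with the count beside each bar and a dashed line at the 30.3% of all coding genes that were marked. Genes listed as ligands (1 of 14) and genes of latency and activation (2 of 12) lie left of the line, and the other roles lie right of it.

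Among the 14 genes listed as other ligands, 13 had no base under the replicated list. Bmp1, named outside the rule for named genes, is counted there although it encodes a protease, and it had 0 bp in each list. Tgfb2 and Tgfb3, the other TGF-beta isoforms, and Inhba, an activin subunit, had 0 bp in each of the 4 lists. The marked ligand was Gdf15, a stress-induced family member, with 790 bp in replicate 1 and 1251 bp in replicate 2. Of 12 genes that hold TGF-beta latent or activate it, the marked ones were Itgav, the integrin alpha V subunit, and Nrros, which tethers latent TGF-beta on myeloid cells. Nrros had 14726 bp in replicate 1 and 16427 bp in replicate 2, with a start-window fold of 29.1 in the replicated list. The matrix tethers Ltbp1, Ltbp2 and Ltbp3 had 0 bp in each list. Replicate 2 marked 4 of these 12, beside 35.6% of coding genes in that list.

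Among 13 other receptors and co-receptors, 5 were marked (38.5%), near the 30.3% of all coding genes. Replicate 1 marked 3 of the 13, beside 27.2% of coding genes, and replicate 2 marked 6, beside 35.6%. The BMP type II receptor gene Bmpr2 had 14096 bp in replicate 1 and 47475 bp in replicate 2. The activin and BMP type I receptor gene Acvr1, which overlaps another coding gene, had 19531 and 43929 bp, and Acvr1b had 13307 and 18475 bp. Acvr2a, which also overlaps another coding gene, had 3785 and 23983 bp and was unmarked in replicate 1. The decoy receptor gene Bambi had 0 bp in replicate 1 and 1613 bp in replicate 2. The co-receptor gene Tgfbr3 and the type I receptor gene Acvr1c had 0 bp in each list, and Eng, the endoglin gene, had 1840 bp in replicate 2 and 0 in replicate 1. The 6 named receptor genes with any cover had more of it in replicate 2, as Tgfbr2 did.

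Of the other Smads, Smad1, Smad5 and Smad6 were marked and Smad9 had 0 bp in each list. Smad1, a BMP-regulated Smad, had 14656 bp in replicate 1 and 33810 bp in replicate 2. Smad5, its close relative, had 1082 and 9970 bp and was unmarked in replicate 1. The inhibitory Smad6 had 6656 and 9807 bp. Smad5, like Smad3, was thus unmarked in replicate 1 and marked in replicate 2. Unlike Smad3, it was also marked in the replicated list. Among the receptor genes named above, Acvr2a and Bambi had the pattern of Smad5, and Eng that of Smad3.

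Among 8 anchoring, scaffold and phosphatase genes, 4 were marked: Fkbp1a, whose product binds the type I receptor, with 15840 bp in the replicated list, Zfyve16 with 6334 bp, Strap with 4613 bp and Hgs, which overlaps another coding gene, with 3572 bp. Zfyve9, the Smad anchor SARA, had 0 bp in each list. Ppm1a, a Smad phosphatase, had 23125 bp but none in the window at its outermost start, and it counted as marked when any start could. Pmepa1 had 0 bp in the replicated list and 612 bp in replicate 2.

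Ubiquitin ligases and deubiquitinases were marked in 10 of 11 cases, with Usp11 at 0 bp in each list. Nedd4l, a ligase related to Smurf2, had 31163 bp in replicate 1 and 141199 bp in replicate 2. Wwp1, which overlaps another coding gene, had 43132 and 77846 bp. Rnf111, the ligase Arkadia that targets Ski, Skil and Smad7, had 35284 and 43194 bp. Smurf1, the paralog of Smurf2, is named outside the rule for named genes and after its values were seen: it had 456 bp in replicate 1 and 48277 bp in replicate 2, against 29460 and 47550 bp in Smurf2.

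Nuclear cofactors were marked in 10 of 12 cases. The coactivator genes Crebbp and Ep300 had 51685 and 26362 bp in replicate 1 and 79416 and 34945 bp in replicate 2. The corepressor gene Ncor1, which overlaps 2 coding genes, had 21071 and 33416 bp. Tgif2 and Foxh1 had 0 bp in each list. In non-Smad signalling, Tab2, an adaptor of the kinase Tak1, had 41760 bp in replicate 1 and 45733 bp in replicate 2. Rock1 had 29783 and 36387 bp, and Rhoa, which overlaps another coding gene, had 28132 and 29754 bp.

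Of 11 target genes of TGF-beta, 8 were marked. The cell cycle inhibitor gene Cdkn1a had 7582 bp in replicate 1 and 7959 bp in replicate 2. Tgfbi, a matrix protein gene, had 4803 and 5180 bp, and Klf10, a rapidly induced transcription factor gene, had 3020 and 3685 bp. Ccn2 and Cdkn2b had 0 bp in each list. Among the targets in the set itself, Smad7 and Skil had 5179 and 16768 bp in replicate 1 and 22096 and 19804 bp in replicate 2.

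For each of the 9 covered genes, the coding gene of like length with the closest pattern of cover was found over 20 equal bins of the gene in both replicates, as the mean absolute difference over these 40 values. Tgfbr1 was closest to Rnf2, at 2.94 percentage points, Skil to Laptm5 at 4.41, Smad2 to Fbxo11 at 4.60, Smurf2 to N4bp1 at 4.84 and Ski to Basp1 at 4.95. The other 4 had no gene within 9 points: Tgfb1 was closest to Pagr1b at 9.41, Smad4 to Acsl3 and Smad7 to Slc16a6 at 11.2 each, and Tgfbr2 to Rsf1 at 12.5. Of these, Rnf2, Fbxo11, Pagr1b, Acsl3 and Slc16a6 overlap other coding genes, whose peaks cannot be separated from theirs. No gene of the set overlaps another coding gene.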

How the data were processed

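H3K79me2 ChIP-seq peaks of 2 replicates of unstimulated bone-marrow-derived macrophages were used as deposited on mm10. Per the deposited text notes, there are lists for replicate 1, for replicate 2 and for both pooled, and a replicated list. The aligner, the peak caller and its cutoffs: not given in the sources used here. Of the 15559 replicated peaks, 15202 (97.7%) have the start and end of a pooled peak, so cover in the replicated list follows the pooled calls. The deposited score, a display value of at most 1000, was not used. The fold (ratio over control) was computed by the authors and served to rank peaks within a list. The authors' −log10 p was not used, and their −log10 q served for 1 alternative. Signal tracks and alignments played no part.

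Within a list, overlapping peaks were merged and then laid on GENCODE M21 (21938 coding genes, chromosomes 1 to 19, X and Y) with Python 3.11.15 and numpy 2.4.6. Covered bases were counted from the outermost annotated start to the end of each gene; distance 0 is the first base. Exons and introns are those of the basic-set coding transcript with the outermost start. Where 2 annotated records share a symbol (Hgs), the longer was used. Promoter letters come from RefSeq (GRCm38.p6), for genes whose RefSeq start lies within 200 bp of the GENCODE start. Mean ± SD is over the 2 replicates, which may share an animal, so it may measure technical spread. In simulated peaks the coverage code returned the planted position, bases and blocks in 200 of 200 genes. Each planted gene met the marking rule by design, so this checks the counting of bases and not the rule. The alternatives were each replicate's list alone, the pooled list, stricter peaks, other minimum covers (1 and 1000 bp), other windows (1 and 5 kb), any transcript start, and stricter overlaps.

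The 10 genes, the pathway list, the marker lists and the alternatives were chosen with earlier results of these data known. The text names the 10 genes, for each pathway role up to 3 marked genes with the most covered bases (every one where 5 or fewer were marked) and up to 3 unmarked genes in list order, and for each covered gene its closest gene by pattern among those of 0.667 to 1.5 times its length. A gene that this rule takes is not reported here.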

Additional observations from a re-analysis of the deposited data

How the results depend on the processing

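The count of marked genes among the 10 stayed between 8 and 10 under the alternatives, with 8 in a 1 kb window, where Smad2 has 190 bp, and 9 or 10 with each replicate's list alone. In the main setting 52 of the 94 other pathway genes were marked, against 30.3% of coding genes. In a 1 kb window 34 were marked, against 25.0%, so the pathway count moved there and fell by a larger fraction than the coding share. When peaks under the median fold were left out, 40 were marked, against 22.3%. The other settings marked between 44 and 55, against 27.2% to 35.6%. Bases covered in the 10 genes ran from 230035 without replicate 2 to 347849 without replicate 1. When the overlap had to reach 50% of the replicate 2 peak, peaks shared with replicate 1 fell from 21 to 11 of 60. That was 18.3% of the replicate 2 peaks in the 10 genes, and the count was also 11 with 50% of both peaks. Over coding genes the shared peaks fell too, from 11161 of 30063 (37.1%) to 5886 (19.6%) and 5716 in the same settings. The drop was thus not particular to these genes. Without replicate 2, the covered bases of 5 of the 10 genes were lower by more than 1 SD. Without replicate 1, those of 2 were higher by more than 1 SD. Each SD comes from the same 2 replicate values, so such counts do not measure the size of a change. Without replicate 2, Smad2 counted as moved, from 44944 to 41011 bp, and Tgfbr2 did not, from 41498 to 23121 bp. Covered bases moved by less than 1 SD in the 10 genes with the pooled list, when peaks under the median fold were left out, and with peaks of q at most 0.05. The SD of Smad7 is wide, however, and without the peaks under the median fold its covered bases went from 21121 to 11688. That of Smad3 is wide too: with the pooled list its covered bases went from 0 to 11799, and the gene from unmarked to marked. First covered bases lay farther in by more than 1 SD in 7 of 9 genes without replicate 2 and in 1 without replicate 1. The replicates entered no comparison of groups. No paired analysis was possible because there is 1 group and no test. The unknown depth limits the reading of uncovered bases: a gene without a peak, such as Smad3 in replicate 1, is one where none was called.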
